A study of Mus musculus with 35 samples.

Results

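Early postnatal microglia clear dying cells, synapses and surplus myelin-forming cells, and the genes that rise in phagocytic microglia of the young brain overlap with those that rise around lesions in the diseased adult brain. The 10 genes described here belong to that shared set: Spp1, Gpnmb, Clec7a, Itgax, Lpl, Lgals3, Cd63, Cd9, Apoe and Fabp5. They were taken by name and are 10 of the 55401 genes in the count table. All 10 passed the filter on low counts (at least 0.5 CPM, counts scaled to library size, in at least 5 mice), as did 17612 genes in all. The question was how their mRNA levels in CD45+ microglia changed from postnatal day 6 (P6) to postnatal day 15 (P15) and to 8 weeks, and whether males and females differed.

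Each library came from the CD45+ cells of 1 wild-type C57BL/6 mouse. The brain was dissociated whole and the cells were caught on dishes coated with antibody against CD45, a surface protein of leukocytes. There were 4 females and 6 males aged 6 days, and 6 females and 6 males at either later age, so that 34 mice were compared. A further P6 mouse, female 6, was left out and is given apart. The study removed 1 mouse as an outlier, which its text does not name. No mouse carried a transgene or was treated, and brain regions were not separated.

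Each library held 23316107 to 38965078 counts, of which 3 were worth 0.0770 to 0.129 CPM. The label of the cells was checked against marker genes as the mean log2 CPM of fixed lists. The 5 microglial markers (Tmem119, P2ry12, Sall1, Siglech and Fcrls) were detected in all 34 mice and averaged 9.17 ± 0.32 (SD, n = 10 mice) at P6, then 10.69 ± 0.31 (n = 12) and 10.81 ± 0.15 (n = 12) at the later ages. Markers of other brain cells were also present. Lists of astrocytes and radial glia averaged 6.71, 8.00 and 7.80 at the 3 ages, of neurons 5.77, 5.47 and 3.94, of neural progenitors and immature neurons 5.92, 3.86 and 1.62, of the oligodendrocyte lineage 5.28, 5.88 and 4.73, of border macrophages and monocytes 4.75, 4.90 and 4.72, of neutrophils and lymphocytes 0.72, 1.71 and 2.84, and of endothelial cells and pericytes 4.96, 5.35 and 5.44. Markers of dividing cells averaged 6.64, 3.95 and 1.06. Ly6g, a neutrophil marker at 0 in 6 mice, was the only listed gene without a count in some library. In libraries of pooled cells, fewer cells of a type and less RNA per cell cannot be told apart.

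Disease-associated microglia are a state seen around amyloid plaques, dying neurons and damaged myelin, in which genes for lipid handling, lysosomes and phagocytic receptors are raised and homeostatic genes such as P2ry12 are lowered. The change runs in part through the receptor TREM2 and its adaptor TYROBP. In the first postnatal week, amoeboid microglia of the developing white matter and of proliferative regions show much of the same programme, with Spp1, Gpnmb, Clec7a, Itgax, Lpl and Igf1 among their best known genes. The members have different jobs. Spp1 (osteopontin) is a secreted ligand of integrins and CD44, Gpnmb is a lysosomal and surface glycoprotein, Clec7a (Dectin-1) and Itgax (CD11c) are surface receptors, Lpl, Fabp5 and Apoe handle lipids, Lgals3 is a galectin that binds damaged lysosomes and glycans, and Cd63 and Cd9 are tetraspanins of lysosomes, vesicles and the plasma membrane.

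On GRCm38/mm10 the genes lie on 7 chromosomes. By the GENCODE M21 annotation, Spp1 (ENSMUSG00000029304) spans 104435118 to 104441050 on the plus strand of chromosome 5, and Gpnmb (ENSMUSG00000029816) spans 49036546 to 49070929 on the plus strand of chromosome 6. Clec7a (ENSMUSG00000079293) spans 129461591 to 129472779 on the minus strand of chromosome 6, where the annotation calls it a polymorphic pseudogene, and the other 9 are annotated as protein-coding. Itgax (ENSMUSG00000030789) spans 128129547 to 128150657 on the plus strand of chromosome 7 and Apoe (ENSMUSG00000002985) 19696109 to 19699188 on the minus strand of chromosome 7. Lpl (ENSMUSG00000015568) spans 68880491 to 68907448 on the plus strand of chromosome 8. Lgals3 (ENSMUSG00000050335) spans 47367751 to 47386160 on the plus strand of chromosome 14. Cd63 (ENSMUSG00000025351) spans 128900989 to 128912822 on the plus strand of chromosome 10. Cd9 (ENSMUSG00000030342) spans 125460266 to 125494791 on the minus strand of chromosome 6, and Fabp5 (ENSMUSG00000027533) 10012548 to 10016607 on the plus strand of chromosome 3. Spp1 shares 309 exonic bases on its own strand with Gm42793, which was listed at 0.11 to 0.15 CPM. The processed copy Cd63-ps was listed at 3.70, 2.33 and 2.40 CPM over the ages, and copies of Cd9 and Fabp5 were below 0.07 CPM.

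The bases just before the start sites of Spp1, Gpnmb and Itgax are shown because these genes had the 3 largest falls between P6 and P15 among the 8 of 10 members with a promoter entry from RefSeq (GRCm38.p6). Each sequence holds the 250 bases upstream of the start, read 5′ to 3′ on the gene's strand, and capitals mark matches to 4 motifs searched on both strands. These were CACGTG, the E-box bound by MITF and TFE factors, then TCATGTG, the M-box, then TGANTCA, the AP-1 site, and GAGGAAGT, a PU.1 and ETS site.
Spp1, chr5:104434861-104435110: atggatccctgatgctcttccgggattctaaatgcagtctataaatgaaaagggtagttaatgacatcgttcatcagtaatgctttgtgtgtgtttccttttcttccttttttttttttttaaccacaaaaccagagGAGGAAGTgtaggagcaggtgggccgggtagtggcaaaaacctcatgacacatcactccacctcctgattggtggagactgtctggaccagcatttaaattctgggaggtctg
Gpnmb, chr6:49036268-49036517: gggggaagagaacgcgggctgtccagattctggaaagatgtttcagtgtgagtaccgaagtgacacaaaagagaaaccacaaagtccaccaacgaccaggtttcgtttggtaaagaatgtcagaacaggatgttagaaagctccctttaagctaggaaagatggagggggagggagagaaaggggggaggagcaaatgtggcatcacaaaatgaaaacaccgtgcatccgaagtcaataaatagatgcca
Itgax, chr7:128129300-128129549: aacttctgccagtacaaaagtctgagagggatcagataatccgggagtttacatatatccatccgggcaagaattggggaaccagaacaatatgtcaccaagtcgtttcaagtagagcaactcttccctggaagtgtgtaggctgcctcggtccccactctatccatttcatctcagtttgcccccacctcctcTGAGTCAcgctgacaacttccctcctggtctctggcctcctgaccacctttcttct
The Spp1 sequence held GAGGAAGT and the Itgax sequence held the AP-1 match TGAGTCA. The Gpnmb sequence held no match, although the 50 bases after the RefSeq start held the AP-1 match TGACTCA, upstream of the GENCODE start given above. In the windows of the other 5 matched members, no letters of these motifs were found. Among 32851 promoter windows of the same 300 bases, 7.81% held TGANTCA, 3.20% GAGGAAGT, 7.15% CACGTG and 3.77% TCATGTG, so the matches are a description of these sequences and no measure of binding.

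Between P6 and P15 most of the set fell. By the edgeR quasi-likelihood test (called at a Benjamini-Hochberg adjusted p, FDR, below 0.05 over all 17612 genes), 9 of 10 members were lower at P15 and none was higher, with Apoe not called. Over all genes tested, 31.4% were called lower and 30.4% higher in this comparison. A stricter test of a change beyond 2-fold (glmTreat) called Spp1, Gpnmb, Clec7a, Itgax, Lpl and Lgals3, that is 6 of 10 against 4.85% of all genes called lower and 4.87% called higher. The values of all P6 mice lay above all P15 mice for 5 members (Spp1, Gpnmb, Itgax, Lpl and Lgals3), as did 7.72% of all genes. The median log2 fold change (log2FC) of the members was −1.68, beside −0.01 over all genes tested.

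Between P15 and 8 weeks the members parted. Clec7a, Itgax, Lgals3 and Cd9 were higher at 8 weeks, Lpl, Apoe and Fabp5 were lower, and Spp1, Gpnmb and Cd63 were not called. The 4 rises and 3 falls stand beside 24.0% of all genes called higher and 23.9% called lower. Only Fabp5 passed the 2-fold test, which called 3.07% of all genes lower and 1.20% higher, and only Cd9 had all adult mice above all P15 mice, as did 1.65% of all genes. From P6 to 8 weeks, 9 of 10 members were lower (36.6% of all genes were called lower and 37.8% higher) and Cd9 was not called. Spp1, Gpnmb, Itgax, Lpl and Fabp5 were lower beyond 2-fold and without overlap, and 12.4% of all genes were lower beyond 2-fold, 11.5% higher beyond 2-fold and 14.8% lower without overlap. Many genes changed between these ages, so that a call alone does not set a member apart. Both comparisons with P6 use the same P6 mice.

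**Figure D1:**
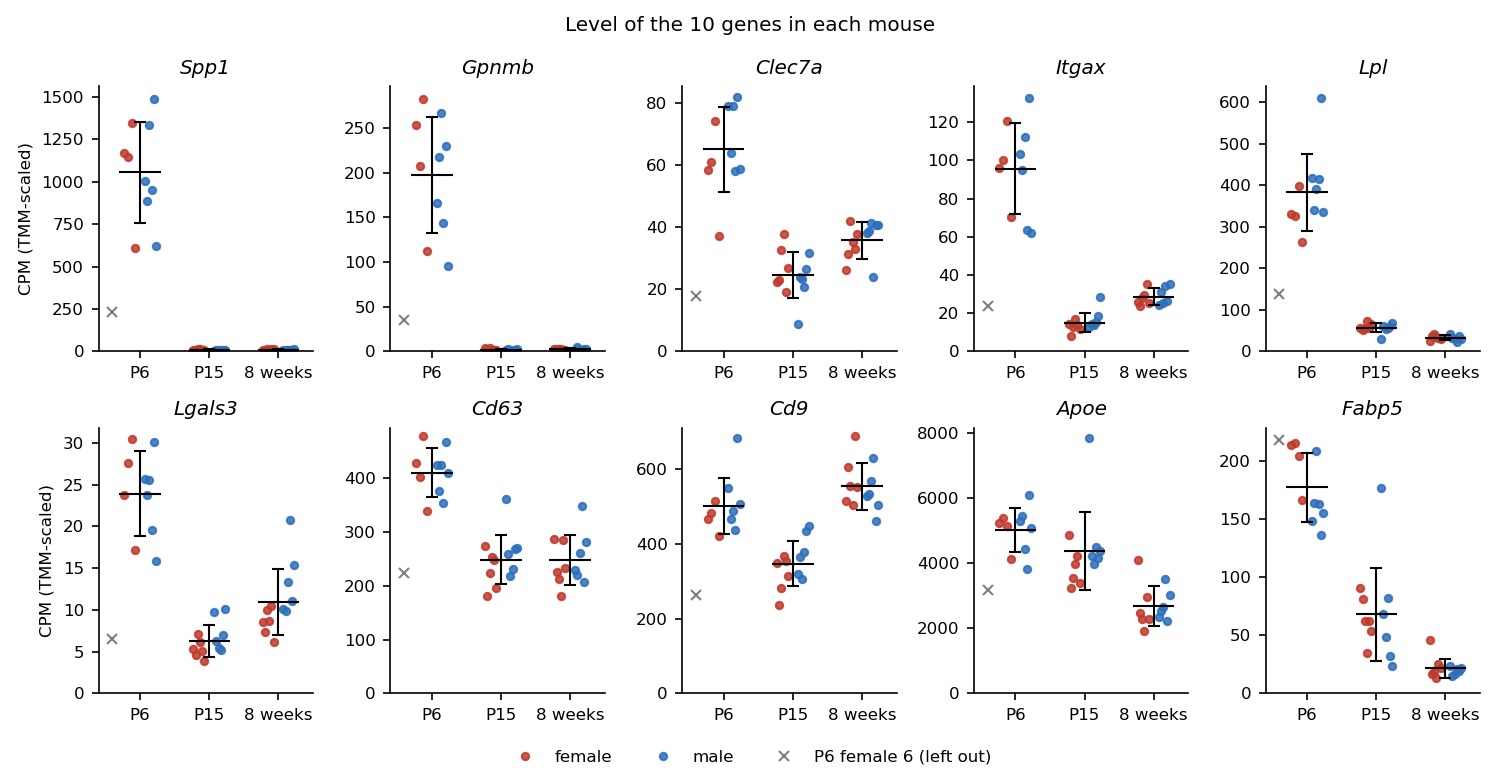
TMM-scaled CPM (y axis, from 0, a separate scale for each gene) of the 10 genes at P6, P15 and 8 weeks (x axis). Points are mice, red for females and blue for males, black lines and bars are the mean and SD of the 10, 12 and 12 mice compared, and the cross is P6 female 6. Spp1 and Gpnmb were near the axis at P15 and 8 weeks, Clec7a, Itgax, Lgals3 and Cd9 were higher at 8 weeks than at P15, and Lpl, Apoe and Fabp5 were lower.

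Spp1 had the steepest fall of the members. It ranged from 606 to 1489 CPM over the P6 mice (median 1072), from 2.03 to 12.2 CPM at P15 (median 9.20) and from 5.86 to 16.2 CPM at 8 weeks (median 9.39). The lowest P6 mouse was thus far above the highest mouse of either later age. The log2FC from P6 to P15 was −6.95 (standard error, SE, 0.25, 95% interval −7.45 to −6.44, FDR = 6.32e-21), a 123-fold lower level, and this was the fourth lowest log2FC of 17612 genes. By mean CPM, Spp1 had rank 67 of these genes in P6 mice, 10073 in P15 mice and 9457 in adults. After P15 the change was 0.24 (95% interval −0.16 to 0.64, edgeR FDR = 0.312).

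Gpnmb followed the same course at a lower level. It ranged from 95.7 to 283 CPM at P6 (median 213), from 0.94 to 4.11 CPM at P15 (median 1.95) and from 1.45 to 5.04 CPM at 8 weeks (median 2.31). The ages P6 and P15 again did not overlap, and the values at P15 and 8 weeks were above the 3-count floor in all mice, with at least 31 counts. From P6 to P15 its log2FC was −6.60 (SE 0.27, edgeR FDR = 4.94e-19), a 96.8-fold lower level and the fifth lowest of all genes. The change after P15 was 0.20 (95% interval −0.29 to 0.70, edgeR FDR = 0.502). At 8 weeks Spp1 was still 104-fold and Gpnmb 84.1-fold below P6. Adding the mean level of neuronal and progenitor markers as a covariate gave −7.23 for Spp1 and −6.50 for Gpnmb from P6 to P15, and the astrocyte score as a covariate gave −6.44 and −6.43.

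Of the 2 receptors, Itgax, the alpha chain of the complement receptor CD11c/CD18, changed more than Clec7a. Itgax ranged from 62.2 to 133 CPM at P6 (median 98.2), from 7.94 to 28.5 CPM at P15 (median 14.2) and from 23.7 to 35.2 CPM at 8 weeks (median 27.3). The P6 mice lay above all others, and P15 and 8 weeks overlapped through P15 male 6, the highest of that age. The log2FC was −2.68 (SE 0.15, edgeR FDR = 3.56e-16) from P6 to P15 and 0.94 (SE 0.14, FDR = 2.01e-06) from P15 to 8 weeks.

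Clec7a, a receptor for fungal beta-glucan that signals through Syk, ranged from 37.0 to 81.7 CPM at P6 (median 62.5), from 8.81 to 37.9 CPM at P15 (median 23.6) and from 23.8 to 41.8 CPM at 8 weeks (median 38.0). Adjacent ages overlapped, with P6 female 5 the lowest at P6 and P15 male 1 the lowest at P15. Its log2FC was −1.37 (SE 0.15, edgeR FDR = 3.91e-09) from P6 to P15, 0.54 (SE 0.15, FDR = 0.003) from P15 to 8 weeks and −0.83 (SE 0.15, FDR = 1.24e-05) from P6 to 8 weeks. The 2-fold call at P15 rested on a glmTreat FDR of 0.029 and was lost without P15 female 5 (FDR = 0.0501) or without P6 female 3 (FDR = 0.074). The rises of Itgax and Clec7a after P15 were 0.35 (FDR = 0.1) and 0.14 (FDR = 0.635) with the score of neuronal and progenitor markers, which itself fell with age, as a covariate.

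The lipid genes fell in sequence, Lpl mostly before P15 and Apoe after it. Lpl, which releases fatty acids from lipoproteins, ranged from 263 to 610 CPM at P6 (median 365), from 29.9 to 73.9 CPM at P15 (median 57.2) and from 23.7 to 41.7 CPM at 8 weeks (median 32.3). All P6 mice lay above all later mice, and P15 male 1 was the lowest at P15. The log2FC was −2.69 (SE 0.13, edgeR FDR = 6.2e-18) and then −0.79 (SE 0.12, FDR = 2.01e-06), which made 8 weeks 11.2-fold lower than P6.

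Fabp5, which carries fatty acids within the cell, fell at both steps. It ranged from 136 to 215 CPM at P6 (median 165), from 23.8 to 176 CPM at P15 (median 62.2) and from 13.4 to 45.9 CPM at 8 weeks (median 19.8). P15 male 1 was the only P15 mouse within the P6 range, and 8-week female 1 was the highest at 8 weeks. The log2FC was −1.41 (SE 0.24, edgeR FDR = 5.65e-06) and then −1.67 (SE 0.23, FDR = 7.39e-07), of which the second was past 2-fold (glmTreat FDR = 0.017). Without P15 male 1 the first step was −1.66 and past 2-fold (FDR = 0.003) and the second was −1.44 and not (FDR = 0.07). Marker scores of other brain cells moved with Fabp5 also within age and sex groups, and 6 of the 9 scores had a called relation with it. With the neuronal and progenitor score as a covariate its change from P6 to 8 weeks was −0.88, no longer past 2-fold, and that from P15 to 8 weeks −0.26 (edgeR FDR = 0.414), and the change from P6 to P15 was −0.63 (FDR = 0.00655). With the astrocyte score as a covariate the change from P6 to P15 was instead −2.65.

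Apoe, the main lipid carrier of the brain, was among the most abundant mRNAs at each age, with a rank by mean CPM of 6 among 17612 at P6, which became 14 and then 30. It ranged from 3829 to 6080 CPM at P6 (median 5176), from 3236 to 7844 CPM at P15 (median 4187) and from 1909 to 4102 CPM at 8 weeks (median 2494). P15 male 1 held the highest value of all mice and 8-week female 1 the highest of its age, and all ages overlapped. The change from P6 to P15 was −0.21 (SE 0.13, 95% interval −0.47 to 0.05, edgeR FDR = 0.164) and that from P15 to 8 weeks −0.69 (SE 0.12, FDR = 3.15e-05). Without P15 male 1 the first change was −0.30 and called (FDR = 0.024). P15 male 1 had an astrocyte score of 8.75, an oligodendrocyte score of 7.41 and the lowest microglial score at P15, 10.06, while 8-week female 1 had the highest astrocyte score of its age, 8.72, and the lowest microglial score, 10.46. With the astrocyte score as a covariate the change of Apoe was −0.38 from P6 to P15 and −0.66 from P15 to 8 weeks. P15 female 2 had the highest astrocyte score of all mice, 8.97, and the lowest Apoe at P15. Over the 34 mice the relation of Apoe with that score was not called (r = 0.22, rho = 0.09, adjusted permutation p = 0.485 and 0.767). Among P6, P15 and adult mice r was −0.08, 0.30 and 0.29. The part of other cells in the Apoe values was not tested.

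Lgals3, like Itgax, was lower at P15 than at P6 and higher again at 8 weeks. It ranged from 15.8 to 30.5 CPM at P6 (median 24.6), from 3.93 to 10.1 CPM at P15 (median 5.79) and from 6.17 to 20.7 CPM at 8 weeks (median 10.04). The P6 mice lay above all P15 mice, and 8-week male 4 was the only adult within the P6 range of 15.8 CPM and above. Its log2FC was −1.95 (SE 0.15, edgeR FDR = 1.11e-12) and then 0.77 (SE 0.14, FDR = 5.3e-05), or −1.17 from P6 to 8 weeks, which was not past 2-fold (glmTreat FDR = 0.155). With the neuronal and progenitor score as a covariate the rise after P15 was 0.51 and not called (edgeR FDR = 0.0742). Without 8-week male 4 the change from P6 to 8 weeks was −1.26 and past 2-fold (FDR = 0.035), and likewise −1.28 without P6 female 5 (FDR = 0.038). That male had the highest score of neutrophil and lymphocyte markers of its age, 4.12.

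The tetraspanins stayed within 2-fold in all 3 comparisons. Cd63, a marker of lysosomes and secreted vesicles, ranged from 338 to 478 CPM at P6 (median 417), from 181 to 361 CPM at P15 (median 251) and from 180 to 348 CPM at 8 weeks (median 230). Only P15 male 1 and 8-week male 4 reached the P6 range. The change was −0.73 (SE 0.10, edgeR FDR = 2.45e-07) from P6 to P15 and −0.00 (95% interval −0.20 to 0.19, FDR = 0.976) after it.

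Cd9, a partner of integrins in the membrane, dipped at P15 and was back at 8 weeks. It ranged from 423 to 684 CPM at P6 (median 485), from 236 to 449 CPM at P15 (median 351) and from 461 to 688 CPM at 8 weeks (median 543). The P15 mice lay below all adult mice and overlapped with P6. The change was −0.52 (SE 0.09, edgeR FDR = 6.11e-06), then 0.68 (SE 0.08, FDR = 9.5e-08), and 0.16 from P6 to 8 weeks (95% interval −0.02 to 0.34, FDR = 0.106). The last change was 0.20 and called without P6 male 5 (FDR = 0.03), 0.40 with the astrocyte score and −0.54 with the neuronal and progenitor score as a covariate, so that its direction depended on the covariate. No adult mouse reached the P6 range of the neuronal and progenitor score, and age and RNA of neural cells cannot be told apart in that fit.

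**Figure D2:**
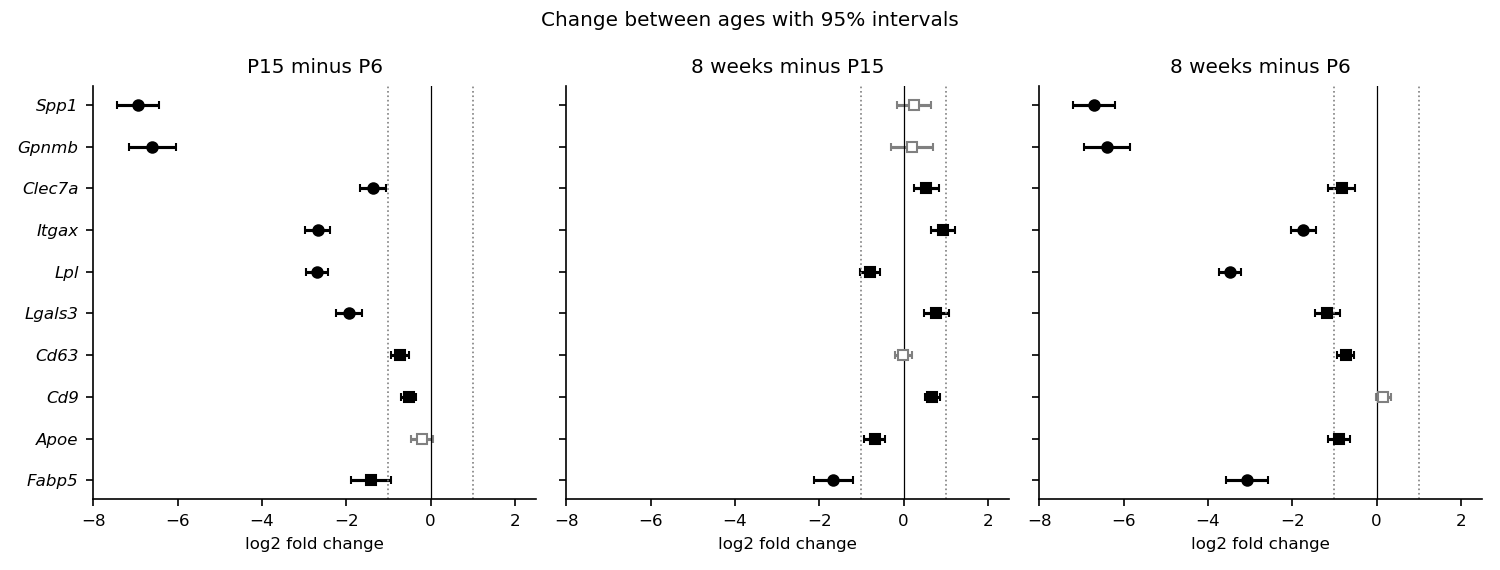
The log2FC (x axis) of the 10 genes (y axis) between ages, with 95% intervals. Filled symbols were called at FDR below 0.05, circles were past 2-fold by glmTreat and dotted lines mark 2-fold. Spp1 and Gpnmb lay beyond −6 in both comparisons with P6, and the changes from P15 to 8 weeks went either way.

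Levels per kilobase used the merged annotated exons of each gene, from 1648 bases (Spp1) to 10478 (Lpl). Which transcripts were present was not resolved, so the order of the genes depends on the annotation. On this scale Apoe was the most abundant member at each age. Its means were 2339 ± 317 (SD, n = 10 mice), 2037 ± 559 (n = 12) and 1257 ± 289 (n = 12) CPM per kilobase in order of age. At P6 it was followed by Spp1 at 640 ± 182, Cd9 at 246 ± 36.1 and Cd63 at 111 ± 12.2, and none of these neighbours overlapped between mice. Below them Fabp5 (49.7), Lpl (36.5), Gpnmb (30.4), Clec7a (24.7), Itgax (19.9) and Lgals3 (12.9) each overlapped with the next in order. At P15 Spp1 had position 7 of the 10 members at 5.23 ± 1.67 CPM per kilobase, between Lpl and Lgals3 and overlapping with both. At 8 weeks Spp1, Fabp5, Itgax and Lgals3 lay between 5.90 and 6.20 CPM per kilobase and did not differ beyond their spread. Gpnmb was last at P15 and 8 weeks, at 0.32 ± 0.15 and 0.36 ± 0.15, without overlap with the next gene above it.

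P6 female 6, the mouse left out, was below the other 10 P6 mice for 9 members and above them for Fabp5 (218 CPM). Spp1 was 233 CPM in it, Gpnmb 34.8, Clec7a 17.9, Itgax 23.6, Lpl 137, Lgals3 6.57, Cd63 224, Cd9 263 and Apoe 3166 CPM. Its microglial score was 7.76, below all P6 mice, and its scores for neurons (7.53), astrocytes (8.16) and the oligodendrocyte lineage (7.37) were above all of them. The part of these cells in its values was not tested.

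No member was called between males and females at any age by the quasi-likelihood test. The share of all genes called was 0.0511% in P6 mice, 0.0681% in P15 mice and 0.114% in adults, and limma-voom and DESeq2 likewise called 0 of 10 members at each age. At an unadjusted p below 0.05 the counts were 0 members at P6, 3 at P15 (Itgax, Lgals3 and Cd9, each higher in males) and 1 at 8 weeks (Lgals3), beside 7.10%, 18.2% and 2.94% of all genes at the same limit. Lgals3 at 8 weeks ranged from 6.17 to 10.5 CPM in females (median 8.59) and from 9.85 to 20.7 CPM in males (median 12.2). The highest female thus exceeded the lowest male, and the log2FC of 0.65, male minus female (95% interval 0.25 to 1.06), had an edgeR FDR of 0.502. At P6 the log2FC of the members lay between −0.30 (Fabp5) and 0.34 (Lpl), and their 95% intervals reached from −1.01 to 0.75. At P15 they lay between −0.33 (Spp1) and 0.45 (Lgals3), and at 8 weeks between −0.39 (Spp1) and that of Lgals3. No gene was called for a sex difference that changed between ages, 0% of 17612 in each of the 3 contrasts, and 1 member (Lgals3, 8 weeks against P6, log2FC 0.73) had an unadjusted p below 0.05, as did 5.10% of all genes, with an edgeR FDR of 0.858.

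**Figure D3:**
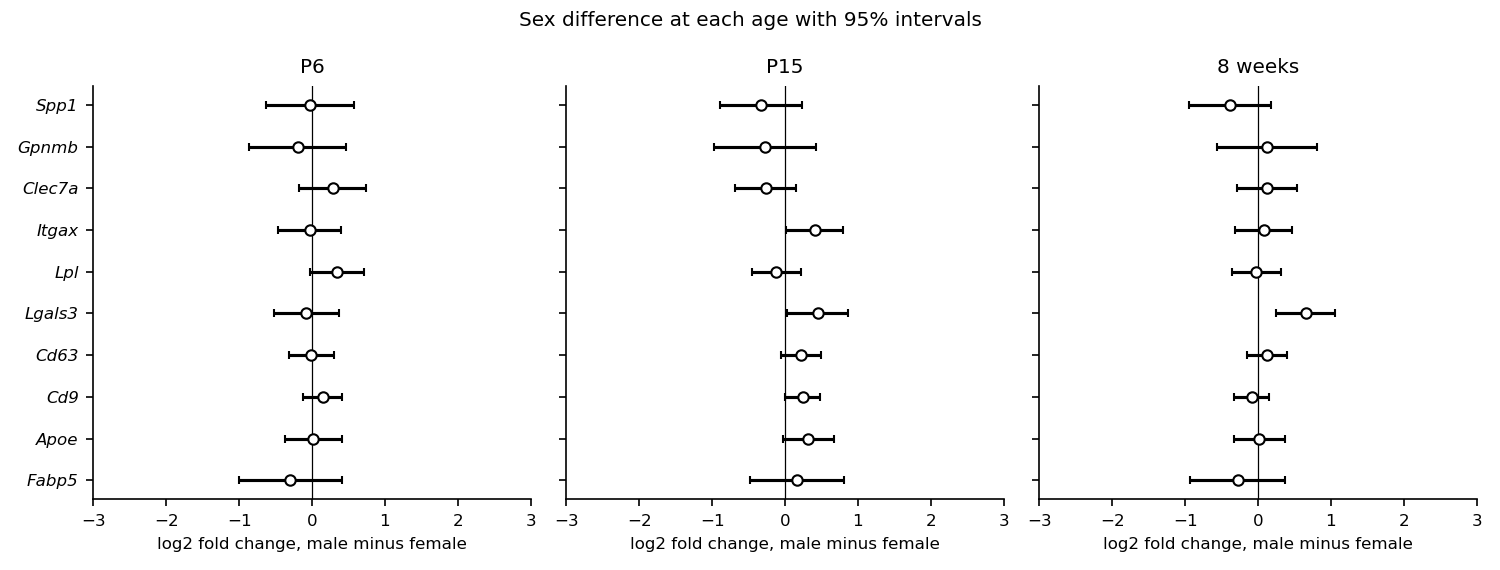
The log2FC of males minus females (x axis) for the 10 genes (y axis) at P6 (4 females, 6 males), P15 and 8 weeks (6 and 6), with 95% intervals. The interval of Lgals3 at 8 weeks, 0.25 to 1.06, lay farthest from 0, and no difference was called over all genes.

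Mice of the same age and sex also varied together in some members. For each of the 45 pairs, deviations of log2 CPM from the group mean were correlated over the 34 mice and tested by 100000 permutations within groups (two-sided, Benjamini-Hochberg over the 45 pairs). The test called 16 pairs by Pearson's r, of which 14 were positive, and 14 of the 16 also by Spearman's rho. The share called among pairs of other genes was not computed, so the count does not set the members apart. Cd63 and Apoe were the closest pair, with r = 0.86 and rho = 0.86 (permutation p = 1e-05 for each, the smallest that these permutations can give, and 0.000225 after adjustment) and with r of 0.68, 0.88 and 0.90 among P6, P15 and adult mice. Without the 2 mice farthest from the median of Cd63, r was 0.82.

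Several pairs of receptors, ligands and lipid genes also varied together. Spp1 and Clec7a had r = 0.86 and rho = 0.80 (adjusted permutation p = 0.000225 for each), r of 0.88, 0.95 and 0.56 at the 3 ages, and 0.82 without 2 mice. Clec7a and Lpl had r = 0.81 and rho = 0.65 (adjusted permutation p = 0.000337 and 0.00195, 0.67 without 2 mice). Itgax went with Cd9 at r = 0.74 and rho = 0.68 (adjusted permutation p = 0.000337 and 0.0015, 0.66 without 2 mice) and with Lgals3 at r = 0.65 and rho = 0.65 (adjusted permutation p = 0.000825 and 0.00195, 0.62 without 2 mice). Fabp5 ran against Clec7a at r = −0.66 and rho = −0.43 (adjusted permutation p = 0.00425 and 0.0482, −0.50 without 2 mice, but 0.37 within P6) and against Lpl at r = −0.63 and rho = −0.46 (adjusted permutation p = 0.00425 and 0.0292, −0.48 without 2 mice). With CPM by library size in place of TMM the latter was −0.45 and no longer called. The relation of Apoe and Fabp5 (r = 0.59, rho = 0.40) rested on the 2 farthest mice, without which r was 0.26, and so did that of Lpl and Cd9 (r = 0.44, rho = 0.39, then 0.28). Spp1 and Gpnmb, which fell alike with age, had r = 0.42 and rho = 0.59 (adjusted permutation p = 0.0508 and 0.00484) and r of 0.91, 0.21 and 0.37 at P6, P15 and 8 weeks.

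Over the 90 relations of a member with a marker score in the same 34 mice, chosen after the data were seen and tested in the same way, 24 were called by Pearson's r and 22 of them by Spearman's rho. The share called over all genes was not computed, so this count likewise does not set the members apart. Fabp5 had r = 0.81 and rho = 0.71 with the astrocyte score (adjusted permutation p = 0.0003 and 0.0015, r = 0.73 without 2 mice) and r = −0.79 and rho = −0.76 with the microglial score (0.0003 and 0.00045, −0.72 without 2 mice). Cd9 had r = −0.77 and rho = −0.77 with the progenitor score (adjusted permutation p = 0.0003 and 0.00045, −0.73 without 2 mice) and r = 0.70 and rho = 0.60 with the microglial score (0.000771 and 0.0121, 0.72 without 2 mice). Itgax, Lpl, Clec7a and Spp1 had r of −0.62 to −0.54 with the oligodendrocyte score. Lgals3 had r = 0.56 and rho = 0.54 with the score of neutrophils and lymphocytes (adjusted permutation p = 0.00768 and 0.0181, 0.59 without 2 mice), with r of 0.09, 0.69 and 0.79 among P6, P15 and adult mice. Apoe and Cd63 had no called relation over the 34 mice, with r of −0.29 to 0.34 and −0.20 to 0.23. Single ages could differ in sign. Among P6, P15 and adult mice, Apoe had r of −0.81, 0.27 and 0.08 with the progenitor score and 0.62, −0.46 and −0.43 with the microglial score. Cd63 had r of 0.59, −0.58 and −0.05 with the score of dividing cells. These values by age were not tested. The part of other cells in the covariation of the members was not tested.

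**Figure D4:**
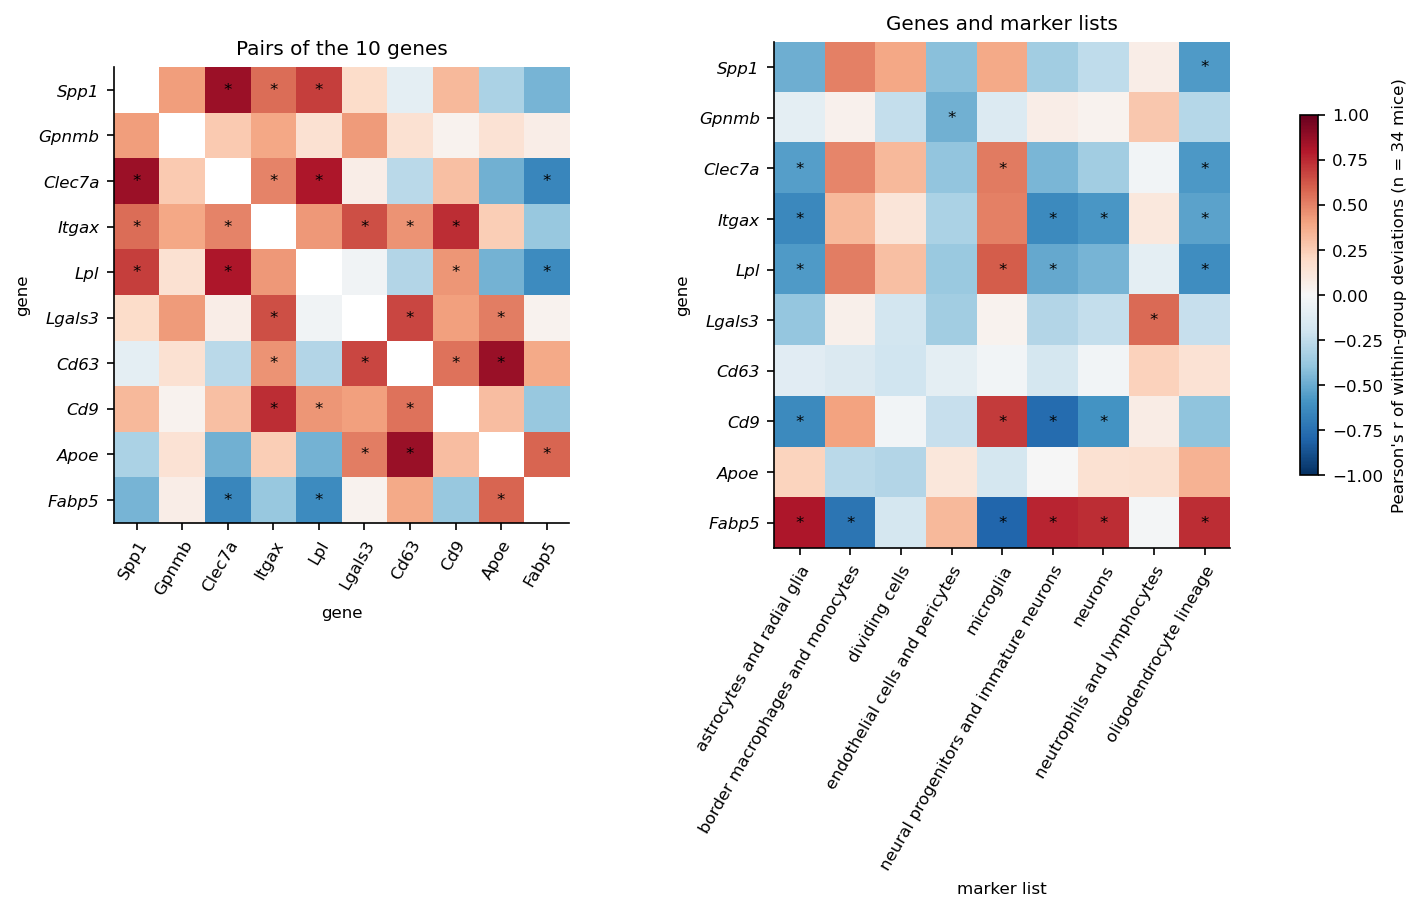
Pearson's r (colour, −1 to 1) of deviations from the age and sex group mean over 34 mice, for pairs of the 10 genes (left) and for the genes with 9 marker lists (right). Stars mark a permutation p below 0.05 after adjustment over the 45 pairs or the 90 relations. Fabp5 was positive with the astrocyte, neuron, progenitor and oligodendrocyte lists. It was negative with the microglial list and with that of border macrophages and monocytes (r = −0.73).

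Among protein-coding genes outside the set, the one whose deviations over the 34 mice were most like each member, of 14778 searched, was Fzd7 for Spp1 (r = 0.85), Vdr for Gpnmb (0.69), Oxct1 for Clec7a (0.89), Cd22 for Itgax (0.84), Slc12a2 for Lpl (0.87), Plin2 for Lgals3 (0.82), Pkm for Cd63 (0.93), Ccl6 for Cd9 (0.92), Aldoa for Apoe (0.92) and Prdx6 for Fabp5 (0.96). These are the highest of many values and are given without a test.

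The genes that work with the members went both ways. Of 31 partner genes sorted by role, 29 were tested, and from P6 to 8 weeks 14 were higher and 9 lower, with a median log2FC of 0.19 beside 0.04 over all genes. These counts are 14 and 9 of 29, beside 37.8% and 36.6% of all genes called higher and lower, and do not set the list apart. From P6 to P15 the counts were 14 higher and 10 lower, beside 30.4% and 31.4% of all genes, and from P15 to 8 weeks 7 higher and 4 lower, beside 24.0% and 23.9%.

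Among the integrin and CD44 receptors of osteopontin, Itgb5 was higher at 8 weeks than at P6 by 1.75 (SE 0.13), Itgav by 1.16 (SE 0.09), Itgb3 by 1.02 (SE 0.13) and Itga9 by 0.95 (SE 0.11), Cd44 fell by 0.43 (SE 0.10), and Itga4 (−0.18) and Itgb1 (−0.16) were not called. Cd44 fell by 1.04 up to P15 and rose by 0.61 after it. Itgb2, the beta chain with which Itgax pairs, rose from 124 ± 28.7 CPM at P6 to 267 ± 68.2 at P15 and 438 ± 88.1 at 8 weeks, a log2FC of 1.85 (SE 0.14), while Itgax itself fell by 1.74. Of the genes through which Clec7a signals, Syk (0.78), Card9 (1.07), Plcg2 (0.71) and Malt1 (0.59) were higher at 8 weeks than at P6, and Bcl10 (−0.15) was not called. Sdc4, a surface proteoglycan that binds Gpnmb, fell by 1.34 (SE 0.14) from P6 to 8 weeks.

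Of the Apoe receptors, Trem2 (1.08, SE 0.12) and Sorl1 (1.60, SE 0.14) were higher at 8 weeks than at P6, Vldlr (−1.40, SE 0.24) and Lrp8 (−1.81, SE 0.22) were lower, and Lrp1 (0.00) was not called. Trem2 averaged 406 ± 82.5 CPM at P6, 675 ± 163 at P15 and 843 ± 144 at 8 weeks. The lipid exporters Abca1 (−0.23) and Abcg1 (0.19) were not called. Angptl4, an inhibitor of lipoprotein lipase, fell beside Lpl, from 17.0 ± 3.85 CPM at P6 to 5.55 ± 2.99 at P15 and 4.74 ± 2.06 at 8 weeks, and Lmf1, which matures the enzyme, was higher at 8 weeks by 0.83 (SE 0.10). Cd36, a fatty acid receptor, fell by 0.74 (SE 0.19). Mertk, a receptor for apoptotic cells that Lgals3 can engage, rose from 176 ± 44.2 CPM at P6 to 475 ± 116 and 729 ± 129 CPM, and Lgals3bp was higher by 0.81 (SE 0.14). The Cd9 partners Ptgfrn (−0.24) and Igsf8 (−0.51) were lower. Timp1, which binds Cd63, was near the floor, at 0.45 ± 0.28 CPM at P6, 0.24 ± 0.19 at P15 and 0.04 ± 0.06 at 8 weeks, with no count in some mice.

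The remaining genes linked to the 2 microglial states went different ways. Of 14 other genes of proliferative-region and axon-tract microglia, 12 were lower at 8 weeks than at P6, 7 of them beyond 2-fold, none was higher, and their median log2FC was −1.24, beside 36.6% of all genes called lower and 12.4% lower beyond 2-fold. Igf1, a growth factor for myelinating cells, fell from 138 ± 34.9 CPM at P6 to 35.4 ± 10.5 at P15 and 16.9 ± 3.64 at 8 weeks, and Gpx3, a secreted peroxidase, from 90.4 ± 13.5 to 23.0 ± 4.87 and 11.4 ± 3.28 CPM. From P6 to P15, 10 of the 14 were lower and none higher, beside 31.4% and 30.4% of all genes, and from P15 to 8 weeks 6 were lower and 2 higher, beside 23.9% and 24.0%.

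Of 22 other disease-associated microglia genes, 8 were higher and 6 lower at 8 weeks than at P6, beside 37.8% and 36.6% of all genes, with a median log2FC of 0.17. Csf1, a ligand of the receptor on which microglia depend, was the only one past 2-fold (log2FC −1.59, SE 0.16). Tyrobp, the adaptor of TREM2, averaged 647 ± 116, 740 ± 159 and 741 ± 141 CPM and was not called in any comparison. In the same list Lilrb4a, named after its values were seen, dipped at P15 as Itgax and Lgals3 did, from 23.4 ± 10.7 CPM at P6 to 9.02 ± 4.79 at P15 and 33.9 ± 12.6 at 8 weeks. Csf1, Ctsb, Ctsl and Cd68 stand in both lists. All 12 homeostatic genes that are lowered in disease-associated microglia were higher at 8 weeks than at P6, 11 of them beyond 2-fold, with a median log2FC of 1.75, beside 37.8% of all genes called higher and 11.5% higher beyond 2-fold, and 12 of 12 were already higher at P15, beside 30.4% of all genes. Selplg rose from 270 ± 60.3 CPM at P6 to 2590 ± 609 and 3428 ± 669 CPM, and Tmem119 from 306 ± 68.7 to 2340 ± 528 and 2572 ± 518 CPM. Tmem119, P2ry12, Sall1 and Siglech are also among the microglial markers above, so the list and the microglial score are not separate measures.

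**Figure D5:**
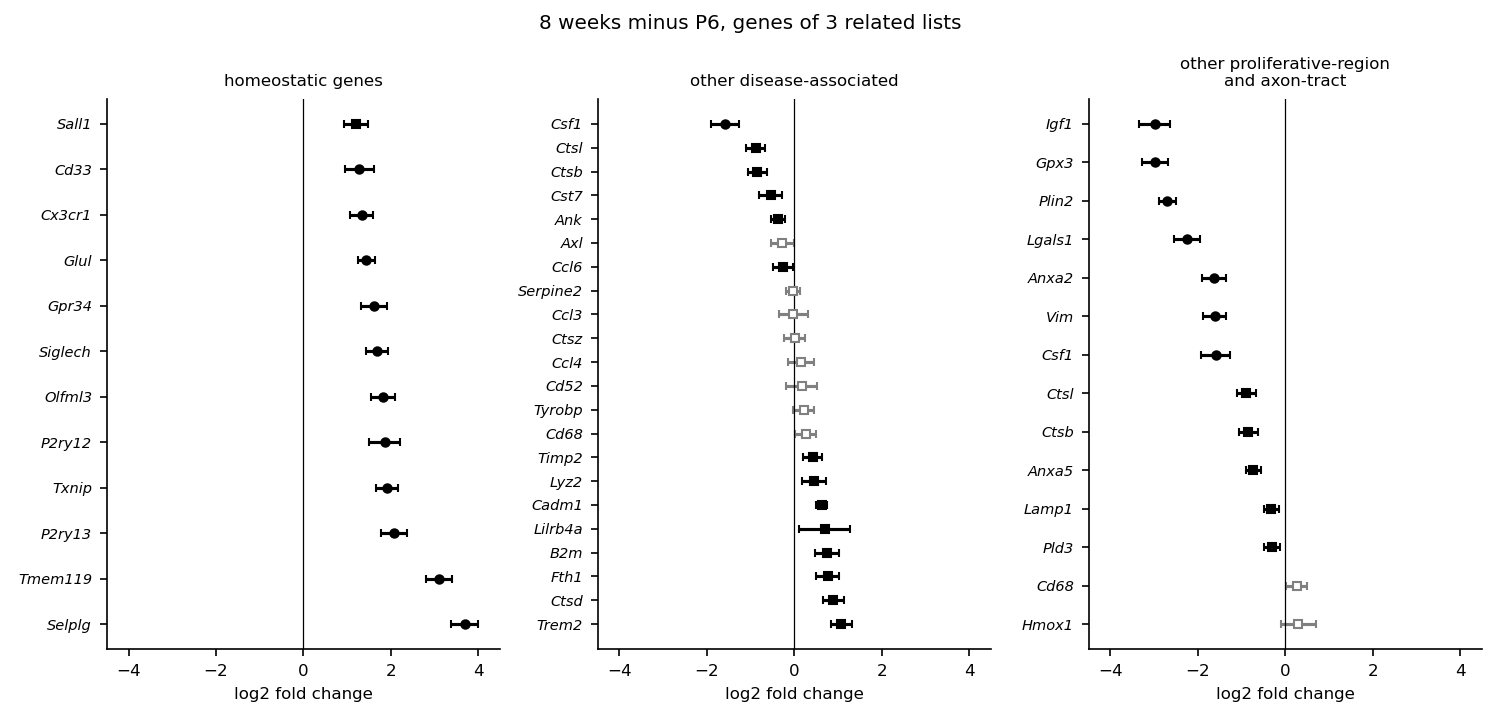
The log2FC from P6 to 8 weeks (x axis) with 95% intervals for the genes (y axis) of 3 fixed lists. Filled symbols were called at FDR below 0.05 and circles were past 2-fold by glmTreat. All 12 homeostatic genes lay above 0, 12 of 14 proliferative-region and axon-tract genes were called below it, and the 22 other disease-associated genes lay on both sides.

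Of 30 tested genes from the families of the members, 19 were higher and 5 lower at 8 weeks than at P6, beside 37.8% and 36.6% of all genes. Of the 9 other tetraspanins listed, 8 were higher and 1 was not called (median log2FC 1.10). Cd81 (1.21, SE 0.11) and Tspan14 (1.39, SE 0.10), named after their values were seen, were among the 8, whereas Cd63 fell and Cd9 was not called. Among fatty acid binding proteins, Fabp7, typical of radial glia, fell from 208 ± 63.4 CPM at P6 to 40.5 ± 15.5 and 14.3 ± 5.89 CPM and Fabp3, also named after its values were seen, from 15.7 ± 2.88 to 5.96 ± 2.30 and 1.79 ± 0.64 CPM, in the same direction as Fabp5, while Fabp4 was at or near the floor at P6 (0.09 ± 0.08 CPM) and averaged 0.90 ± 0.62 CPM at 8 weeks. Apoc1, an apolipoprotein encoded next to Apoe, fell from 13.2 ± 3.57 CPM at P6 to 3.17 ± 0.83 and 0.89 ± 0.40 CPM. Of the galectins and the partners of Itgb2, chosen in the same way, Lgals1 fell (−2.25, SE 0.15), Lgals4, Lgals8 and Lgals9 were higher at 8 weeks than at P6 (1.47, 1.09 and 0.57), and Itgam, the alpha chain CD11b, rose from 158 ± 35.6 to 483 ± 109 and 484 ± 46.2 CPM. Dmp1, of the family of osteopontin, was at 0.45 ± 0.29 CPM at P6 and 6.30 ± 2.28 at 8 weeks.

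Of 10 transcription factors tied to lysosomal and lipid genes, 6 were higher and 1 lower at 8 weeks than at P6, beside 37.8% and 36.6% of all genes. The one that fell was Tfec, a relative of MITF expressed in macrophages, from 14.0 ± 2.89 CPM at P6 to 7.42 ± 2.06 at P15 and 2.52 ± 0.61 at 8 weeks (log2FC −2.43, SE 0.17). Mitf, Tfeb and Tfe3 were named after their values were seen. Mitf was lower at P15 (−0.48, SE 0.17) and higher again at 8 weeks (0.83, SE 0.16), Tfeb (0.80) and Tfe3 (0.52) were higher at 8 weeks than at P6, and Bhlhe41 was higher beyond 2-fold (1.29, SE 0.13).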

How the data were processed

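The mRNA of CD45+ cells from 35 mice was sequenced, 1 library per mouse. The authors aligned reads to GRCm38/mm10 and deposited raw counts of fragments per gene, without normalisation. The submitters' processing notes name fastp 0.20.0, STAR, featureCounts and Subread, and library preparation kept the strand. The release of the annotation used for counting is not given in the sources used here. Genes were named from GENCODE M21, which held 55141 of 55401 identifiers. No 2 libraries of a group were copies (85 pairs, lowest chi-square per gene 12.8).

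Counts were scaled by TMM and fitted in edgeR 4.0.16 (R 4.3.3) by quasi-likelihood with 1 mean per age and sex group over 34 mice. P6 female 6 was left out, and the text of the study does not name the 1 outlier mouse that it removed. Age contrasts average the sexes, tests are two-sided, and p-values were adjusted by Benjamini-Hochberg over 17612 genes. Levels are given as CPM after TMM scaling, with 2 counts added before taking log2. The limma-voom (limma 3.58.1) and DESeq2 1.42.0 tests, covariates, other scalings, filters and left-out mice were alternatives. Correlations were computed in Python 3.11.15 with numpy 2.4.6. Floors of 3 counts cover counting error alone.

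The members and lists were chosen with earlier results of these data known. All 10 members are named. Of each list at most 2 rises and 2 falls are named, by the largest change from P6 to 8 weeks past 2-fold, any partner gene may be named, and the most alike protein-coding gene of each member is named. Further genes of the families and factors, and Lilrb4a and Tyrobp, were named outside this rule after their values were seen. Some genes of the lists are not reported here and were left out of the counts and scores. The miRNA libraries were not analysed here.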

Additional observations from a re-analysis of the deposited data

Results flagged for a closer look

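A sample lay far from the rest of its age and sex group in 6 of the 60 combinations of a member and a group (Dixon's test on log2 CPM, 95% critical value). Chance alone gives about 1 in 20. Of these, 4 belong to P15 male 1, whose Apoe was 7844 CPM beside 4488 CPM in the next male and whose Clec7a was 8.81 CPM beside 20.6, Lpl 29.9 CPM beside 52.9 and Spp1 2.03 CPM beside 6.70. Clec7a was also low in 8-week male 4, at 23.8 CPM beside 38.1 in the next male, and Lpl high in P6 male 5, at 610 CPM beside 417. P15 male 1 had an astrocyte score of 8.75 and an oligodendrocyte score of 7.41, 8-week male 4 a neutrophil and lymphocyte score of 4.12, and P6 male 5 a microglial score of 9.72, the highest at P6. The part of these cells in the 6 values was not tested.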

How the results depend on the processing

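Spp1, Gpnmb, Itgax and Lpl kept their directions and their calls from P6 to P15 under all alternatives run, and no alternative changed a call between the sexes. All members had at least 31 counts in all mice, and whether more depth would change a call was not tested. Scaling by library size alone shifted the median log2FC of all genes by −0.13 from P6 to P15 and −0.14 from P6 to 8 weeks. Under it Apoe was called lower at P15 (−0.33) and Lgals3 was past 2-fold at 8 weeks (−1.32). The 2-fold call of Clec7a at P15 was lost with all 35 mice (−1.28), limma-voom (−1.41), DESeq2 (−1.37), a fit of the compared groups alone (−1.34) and the astrocyte covariate (−0.94). The count of members higher from P6 to 8 weeks, 0, became 1 (Cd9) with all 35 mice and with the astrocyte covariate, and was 0 to 1 over left-out mice. The count lower beyond 2-fold from P15 to 8 weeks, 1, became 0 with limma-voom, DESeq2 and the neural covariate, and was 0 to 1 over left-out mice. The count higher from P15 to 8 weeks, 4, became 1 with the neural covariate. That covariate turned Spp1 from P15 to 8 weeks to −0.12 and Cd9 from P6 to 8 weeks to −0.54, and the median of all genes moved by −0.11 from P6 to 8 weeks. It also gave −1.56 for Clec7a and −2.80 for Itgax from P6 to 8 weeks, −0.82 for Cd9 from P6 to P15, and 0.28 for Cd9 and −1.20 for Lpl from P15 to 8 weeks, while the astrocyte covariate gave −0.44 for Clec7a from P6 to 8 weeks and −0.25 for Cd9 from P6 to P15. Cd63 from P15 to 8 weeks was 0.0030 under the replicate block and −0.062 to 0.024 over left-out mice. Of the other proliferative-region and axon-tract genes, the count higher from P15 to 8 weeks, 2, became 1 with all 35 mice, DESeq2 size factors and no filter and was 1 to 2 over left-out P6 females, and that from P6 to 8 weeks, 0, became 1 with all 35 mice. The causes were not tested. The 16 covarying pairs were among the 23 called with all 35 mice. With library sizes 16 pairs were called, of which 11 were shared, and Clec7a with Itgax, Itgax with Cd63, Lpl with Cd9, Lpl with Fabp5 and Cd63 with Cd9 lost the call. Same-numbered mice are different animals. Over 80 such pairs their deviations correlated by −0.26 to 0.54 (median 0.01, 22 over 0.1). Pairs with different numbers were not compared, so whether a number stands for a shared batch was not tested. With the replicate block, Fabp5 from P6 to P15 passed 2-fold (−1.47), members past 2-fold at P15 were 7 instead of 6, and 41 other results of single members kept their direction and side of the threshold.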
